A study of Mus musculus with 16 samples.

Results

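The genes described here are 48 mouse genes of the lysosome: 11 subunits and accessory proteins of the vacuolar proton pump (V-ATPase), 9 proteins of the lysosomal membrane, 25 hydrolases and 3 soluble cofactors of hydrolases. They were taken from a list of lysosomal hydrolase, membrane and V-ATPase genes, looked up in the platform's table of probes and genes with older symbols updated, with the brightest probe standing for a gene. The lookup found 46 of the 48, all of which passed the filter on dim probes, out of 17484 genes tested. Atp6v0c and Ctsb had no probe under a current or older symbol and are not analysed here, so the V-ATPase is represented by 10 genes and the hydrolases by 24.

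The measurements come from 16 arrays of 2 colours in Ba/F3 cells, a mouse cell line that grows in interleukin-3 and is usually described as pro-B. Clonal lines carried either FOXO3(A3)-ER or its FOXO4(A3)-ER counterpart. In each, a forkhead factor is joined to part of the oestrogen receptor and becomes active when 4-hydroxytamoxifen (4-OHT) is added. Treated cultures were compared with a pool of time 0 cells of the same line, in 4 groups of 4 arrays: FOXO3 line at 2 h, FOXO3 line at 8 h, FOXO4 line at 2 h and FOXO4 line at 8 h. Replicates are given as independent in the design text. Replicates 1 and 3 had the treated RNA in Cy3 and replicates 2 and 4 had it in Cy5. Each line is a clone, parental cells and mock-treated time courses were not among the samples used here, and each ratio against 0 h rests on 1 pool per line. Effects of 4-OHT, of time in culture and of the fusion protein therefore cannot be told apart, nor can effects of the factor and of the clone. The arrays read RNA of whole cultures, in which fewer expressing cells and less RNA per cell cannot be told apart.

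Lysosomes break down proteins, glycans and lipids with hydrolases that work at acid pH. The V-ATPase keeps that pH: its soluble V1 sector splits ATP and turns a rotor, and its membrane V0 sector passes protons inward. Transcription factors of the MiT family (TFEB, TFE3, MITF) are known to bind an E-box-like element called CLEAR in promoters of many of these genes, and FOXO factors are known to raise genes of autophagy and lysosomal breakdown in several tissues.

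All 46 genes lay above their local background in 32 of 32 readings (2 channels on 16 arrays). A stricter mark was the 95th percentile of spots for external control RNA, leaving out 1 of 14 control types, which gave a detectable signal. Above it lay 22 genes in every reading, and 7 (Cln3, Ctsl, Ctss, Galns, Gla, Neu1 and Sgsh) in none. Ratios of those 7 rest on dim spots. With them, 15 genes lay above the mark in no more readings than below it. The others were Arsb, Atp6v1a, Cd68, Grn, Lipa, Mcoln1, Naglu and Ppt1. Of 11 genes listed as B-lineage markers and tested, Cd79b and Ptprc lay above that mark in every reading, and 9, Cd79a, Pax5 and Ebf1 among them, in none. Ptprc encodes a leukocyte antigen and does not mark B cells alone. Of 8 T, NK and erythroid markers tested, 0 lay above that mark in every reading, and 2 (Cd3g and Ncr1) in none. Of 9 mast cell, basophil and neutrophil markers tested, Cpa3 and Gata2 lay above that mark in every reading, and 5 (Elane, Fcer1a, Kit, Mpo and Ms4a2) in none. Of 11 macrophage markers, 8 lay above it in no reading, Adgre1, Cd14 and Mrc1 among them. Macrophages are rich in lysosomes. The mean log2 level of their 11 markers was 6.65 to 6.96 in treated and 6.65 to 7.00 in time 0 RNA over the groups. At 8 h 0 of the 11 rose and 1 fell in each line. Over all genes 15.4% rose and 15.1% fell in the FOXO3 line, and 9.71% and 8.75% in the FOXO4 line. With 8 of the 11 markers this dim, a change in macrophages could go unseen, and it was not tested.

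At 8 h all calls among the V-ATPase genes were rises. In the FOXO3 line 8 of 10 rose and 0 fell, and in the FOXO4 line 9 of 10 rose and 0 fell (limma, Benjamini-Hochberg adjusted p under 0.05 over all genes; every call below is from this fit). At an unadjusted p under 0.05, 9 were higher and 0 lower in each line. Among the genes called, Atp6v1h in the FOXO3 line and Atp6v1c1 in the FOXO4 line did not keep the same sign on every array. The median log2 ratio of treated to time 0 RNA of the 10 genes was 0.40 and 0.22 (FOXO3, FOXO4), against -0.0023 and -0.011 over all genes tested. Over all genes, 15.4% were called higher and 15.1% lower in the FOXO3 line, and 9.71% higher and 8.75% lower in the FOXO4 line (30.5% and 18.5% in either direction). Without the gene-specific dye term, 7 and 3 of the 10 were called higher, with the same medians.

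Atp6v1d, which encodes the rotor subunit D of the V1 sector, had the highest ratio of the 46 genes in both lines. Its log2 ratios in the FOXO3 line were 1.43, 1.28, 1.46 and 1.31 at 8 h (replicates 1 to 4) and 0.17, -0.10, 0.16 and 0.09 at 2 h. In the FOXO4 line they were 0.93, 0.59, 0.82 and 0.54 at 8 h and 0.28, -0.22, 0.30 and -0.13 at 2 h. All 8 h arrays of a line lay above all 2 h arrays of that line, and all 8 h arrays of the FOXO3 line lay above those of the FOXO4 line. The fitted log2 ratio at 8 h was 1.37 ± 0.05 (SE, n = 4 arrays, 2.58-fold, adjusted p = 7.29e-14) in the FOXO3 line and 0.72 ± 0.05 (1.65-fold, adjusted p = 1.74e-09) in the FOXO4 line.

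Atp6v1e1, which encodes subunit E of the peripheral stalk, had the next highest V-ATPase ratio in the FOXO3 line. It read 0.71, 1.04, 0.80 and 1.04 in the FOXO3 line at 8 h, and -0.05, 0.18, -0.03 and 0.20 at 2 h. The FOXO4 line gave 0.25, 0.56, 0.26 and 0.49 at 8 h and -0.07, 0.13, -0.12 and 0.25 at 2 h. The 8 h arrays of the FOXO3 line were the highest and did not overlap any other group; in the FOXO4 line the lowest 8 h and the highest 2 h array met. Arrays with the treated RNA in Cy5 read higher throughout. The fitted 8 h ratios were 0.90 ± 0.03 (adjusted p = 2.58e-13) and 0.39 ± 0.03 (adjusted p = 7.80e-08).

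Atp6v0d1 encodes subunit d, which joins the proton-carrying ring of V0 to the rotor. Its 8 h ratios were 0.60, 0.64, 0.73 and 0.68 in the FOXO3 line against 0.08, 0.20, 0.20 and 0.30 in the FOXO4 line, so the lines did not overlap. At 2 h the arrays read -0.05, 0.08, -0.45 and 0.04 in the FOXO3 line, all below its 8 h arrays. The fit gave 0.67 ± 0.06 (adjusted p = 5.15e-08) in the FOXO3 line and 0.19 ± 0.06 (adjusted p = 0.0334) in the FOXO4 line; the latter call was lost when any of the 4 FOXO4 arrays at 8 h was left out (log2 ratio 0.16 to 0.22) and with the replicate number as a block (adjusted p = 0.0708).

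Atp6v1b2, the B subunit beside the catalytic site, rose in both lines. Its 8 h arrays read 0.28, 0.44, 0.43 and 0.51 in the FOXO3 line against 0.31, 0.46, 0.26 and 0.53 in the FOXO4 line. The 2 h arrays, between -0.17 and 0.06, all lay below them. Fitted ratios at 8 h were 0.42 ± 0.04 and 0.39 ± 0.04 (adjusted p = 1.46e-07 and 1.00e-06), and their difference of 0.03 ± 0.06 between the lines was not called.

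The other V-ATPase genes moved less. Atp6v0b, a subunit of the proton-carrying ring, rose by 0.49 and 0.21 in the FOXO3 and FOXO4 lines, and Atp6v0e, a small membrane subunit, by 0.39 and 0.26. Atp6v1c1, a stator subunit, rose by 0.27 and 0.14, and Atp6v1h, a regulatory subunit, by 0.12 and 0.13. Atp6ap1, an accessory protein, read 0.11 without a call in the FOXO3 line and rose by 0.24 in the FOXO4 line. Atp6v1a, the catalytic subunit, was the exception in both lines, with 0.09 and 0.08 and no call; its time 0 RNA lay above the control-spot mark on 0 of 16 arrays. Calls in the FOXO4 line were lost without replicate 1, 2 or 4 of its 8 h arrays for Atp6v1c1 (0.11 to 0.16), without 1, 2 or 3 for Atp6v1h (0.11 to 0.14) and without 3 for Atp6v0b (0.19), and in the FOXO3 line without 1, 2 or 4 for Atp6v1h (0.09 to 0.12). Atp6v1c1 also lost its call without single arrays of other groups, which left its ratio as it was. Median centring ended the calls of Atp6v1h in the FOXO3 line (0.07, adjusted p = 0.369) and of Atp6v1c1 in the FOXO4 line (0.18, adjusted p = 0.0757).

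**Figure D1:**
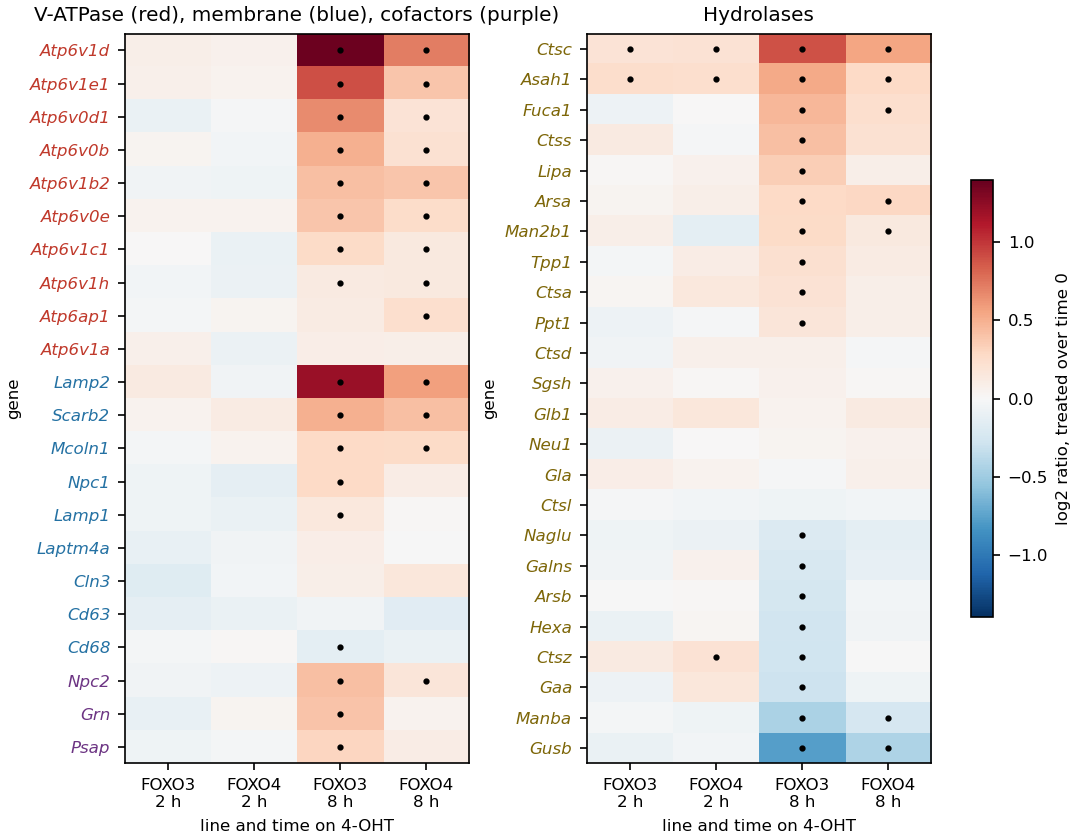
Fitted log2 ratio of treated to time 0 RNA (colour) for the 46 genes (rows, ordered within each class by the FOXO3 line at 8 h) in the 4 groups (columns, 4 arrays each); a black dot marks an adjusted p under 0.05. The 2 h columns are pale with 2 and 3 dots, and the V-ATPase rows are red at 8 h, while the hydrolases range from red to blue.

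Promoter sequences are shown for the 3 genes that rose most, the gene that fell most and 4 of the 8 genes whose promoters hold the longer E-box match. Windows run from 250 bases before to 50 bases after the start of the gene and come from RefSeq (GRCm38.p6); 41 of the 48 genes had an entry. Both strands were searched for CACGTG, the core of the E-box, for TCACGTGA, the longer palindrome around it, which by construction also counts as a core, and for GTAAACA, a forkhead motif. Sequences are written along the gene's own strand, and CACGTG or TCACGTGA stands in capitals.
Atp6v1d, chr12:78861589-78861888, minus strand: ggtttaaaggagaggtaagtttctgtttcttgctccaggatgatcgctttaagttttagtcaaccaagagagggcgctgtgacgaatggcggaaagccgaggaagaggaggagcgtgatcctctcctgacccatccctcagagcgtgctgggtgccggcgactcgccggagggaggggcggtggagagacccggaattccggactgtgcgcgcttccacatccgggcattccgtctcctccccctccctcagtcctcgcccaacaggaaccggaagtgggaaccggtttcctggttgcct
Lamp2, chrX:38456411-38456710, minus strand: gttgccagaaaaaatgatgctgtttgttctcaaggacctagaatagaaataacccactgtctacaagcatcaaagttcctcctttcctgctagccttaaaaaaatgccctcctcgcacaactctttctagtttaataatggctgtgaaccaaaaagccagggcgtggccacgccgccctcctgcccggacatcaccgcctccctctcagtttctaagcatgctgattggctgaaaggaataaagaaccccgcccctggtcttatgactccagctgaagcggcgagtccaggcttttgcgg
Atp6v1e1, chr6:120822649-120822948, minus strand: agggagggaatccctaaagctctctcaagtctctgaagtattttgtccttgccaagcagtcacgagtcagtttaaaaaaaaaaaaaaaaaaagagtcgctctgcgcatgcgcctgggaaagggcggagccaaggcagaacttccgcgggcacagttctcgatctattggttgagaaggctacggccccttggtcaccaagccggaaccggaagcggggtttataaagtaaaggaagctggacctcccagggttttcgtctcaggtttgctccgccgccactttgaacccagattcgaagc
Gusb, chr5:130003000-130003299, minus strand: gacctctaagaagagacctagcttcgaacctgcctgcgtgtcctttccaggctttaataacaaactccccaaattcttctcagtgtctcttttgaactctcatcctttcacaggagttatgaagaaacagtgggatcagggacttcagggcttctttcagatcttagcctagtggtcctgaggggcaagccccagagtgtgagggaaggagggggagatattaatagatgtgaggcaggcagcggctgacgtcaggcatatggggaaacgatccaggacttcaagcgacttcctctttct
Atp6v0d1, chr8:105566015-105566314, minus strand: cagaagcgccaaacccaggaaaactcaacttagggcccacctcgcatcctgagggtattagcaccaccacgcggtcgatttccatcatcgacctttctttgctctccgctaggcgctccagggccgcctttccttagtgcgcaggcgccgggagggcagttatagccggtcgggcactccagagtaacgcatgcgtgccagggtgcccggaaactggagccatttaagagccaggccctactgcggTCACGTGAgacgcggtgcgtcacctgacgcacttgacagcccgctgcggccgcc
Atp6v0e, chr17:26676146-26676445, plus strand: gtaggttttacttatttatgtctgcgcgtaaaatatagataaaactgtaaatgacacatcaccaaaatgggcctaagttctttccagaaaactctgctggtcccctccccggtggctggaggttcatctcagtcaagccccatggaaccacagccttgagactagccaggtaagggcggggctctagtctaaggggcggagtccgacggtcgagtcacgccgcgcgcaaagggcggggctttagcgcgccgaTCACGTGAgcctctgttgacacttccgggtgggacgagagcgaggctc
Atp6v1a, chr16:44139210-44139509, minus strand: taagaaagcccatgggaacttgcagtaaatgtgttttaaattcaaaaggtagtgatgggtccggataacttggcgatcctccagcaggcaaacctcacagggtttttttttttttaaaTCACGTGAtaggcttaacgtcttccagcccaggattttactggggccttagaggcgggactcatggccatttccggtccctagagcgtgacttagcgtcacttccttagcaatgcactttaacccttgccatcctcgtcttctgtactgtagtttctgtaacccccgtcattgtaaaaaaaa
Gla, chrX:134600956-134601255, minus strand: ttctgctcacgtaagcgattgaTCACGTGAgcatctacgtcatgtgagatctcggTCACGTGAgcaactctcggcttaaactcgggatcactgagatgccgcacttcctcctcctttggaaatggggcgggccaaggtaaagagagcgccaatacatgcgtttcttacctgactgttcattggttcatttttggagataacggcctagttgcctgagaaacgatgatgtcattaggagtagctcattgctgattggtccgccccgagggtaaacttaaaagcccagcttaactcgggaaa

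The first 4 sequences are those of the 3 genes that rose most in the FOXO3 line at 8 h and of the gene that fell most, and none of them holds a match. The next 3 belong to V-ATPase genes with 1 TCACGTGA each, which starts at position -4 in Atp6v0d1, 3 in Atp6v0e and -132 in Atp6v1a. Position 1 is the first base of the gene, and there is no position 0. Of these, Atp6v0d1 and Atp6v0e rose in both lines at 8 h and Atp6v1a was not called in either. The Gla promoter holds 2 copies, the first at -228, and Gla read -0.02 and 0.07 with no call on a dim probe. Promoters of Ctsa, Mcoln1, Ctsd and Cln3 also hold TCACGTGA and are not shown. Of these, Ctsa and Mcoln1 rose in the FOXO3 line at 8 h, and Ctsd and Cln3 were not called.

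Over the 41 genes with an entry, 16 (39.0%) held CACGTG, against 8.09% of the 27025 genes of the table. TCACGTGA stood in 8 of them (19.5%, against 1.12%) and GTAAACA in 0 (against 4.05%). By class, CACGTG stood in 4 of 8 V-ATPase genes, 9 of 22 hydrolases and 3 of 11 membrane and cofactor genes. By direction in the FOXO3 line at 8 h, it stood in 7 of the 21 genes that rose, 2 of the 8 that fell and 7 of the 11 without a call, while Atp6v0c, which was not tested, had none; for TCACGTGA these counts were 4, 0 and 4. A match describes letters in this window only.

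Of the 9 membrane genes, 5 rose and 1 fell in the FOXO3 line at 8 h, and 3 rose and 0 fell in the FOXO4 line. Over all genes 15.4% rose and 15.1% fell in the FOXO3 line, and 9.71% and 8.75% in the FOXO4 line. The falls were thus no more frequent than over all genes. Lamp2, which encodes a main glycoprotein of the membrane and of chaperone-mediated autophagy, led this class. Its log2 ratios at 8 h were 1.39, 1.10, 1.38 and 0.97 in the FOXO3 line against 0.88, 0.32, 0.71 and 0.38 in the FOXO4 line. At 2 h the FOXO3 line read 0.34, -0.0023, 0.05 and 0.09 and the FOXO4 line 0.30, -0.56, 0.21 and -0.17. Arrays with the treated RNA in Cy3 read higher in each group except the FOXO3 line at 2 h, where replicate 3 lay below replicate 4. The 8 h arrays of the FOXO3 line lay above every other array and those of the FOXO4 line above its 2 h arrays. The fit gave 1.21 ± 0.07 (2.32-fold, adjusted p = 5.72e-11) and 0.57 ± 0.07 (1.49-fold, adjusted p = 4.16e-06); both further probes of Lamp2 were called higher in both lines, with 1.16 and 0.65 in the FOXO3 line.

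Scarb2, the membrane receptor that carries glucocerebrosidase to lysosomes, read 0.37, 0.60, 0.34 and 0.71 in the FOXO3 line against 0.27, 0.62, 0.20 and 0.61 in the FOXO4 line at 8 h. At 2 h its arrays lay between -0.21 and 0.38, with Cy5-treated arrays above Cy3-treated ones, so the times overlapped until the dye was taken into account. Its fitted ratios were 0.50 ± 0.04 (adjusted p = 8.91e-09) and 0.42 ± 0.04 (adjusted p = 2.67e-07). Mcoln1, a calcium channel of the lysosome, rose by 0.28 and 0.27, although its dimmer probe read 0.03 and -0.0064 without a call and the mean of both probes in the FOXO4 line was 0.13 (adjusted p = 0.0856).

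Npc1, which exports cholesterol from the lysosome, rose by 0.28 in the FOXO3 line and read 0.10 in the FOXO4 line. Lamp1, the relative of Lamp2, rose by 0.15 and read 0.02. Cd68, a LAMP family protein of phagocytes, fell by 0.13 in the FOXO3 line (adjusted p = 0.0472) and read -0.09 in the FOXO4 line. Leaving out single FOXO3 arrays at 8 h ended the calls of Lamp1 (replicate 1, 3 or 4, 0.13 to 0.15) and Cd68 (replicate 1, 2 or 4, -0.12 to -0.13), and 8 arrays of other groups did so for Cd68 with its ratio unchanged. With control-spot centring Cd68 read -0.02 (adjusted p = 0.892) and with median centring -0.08 (adjusted p = 0.298), so its fall depended on the scaling; Lamp1 lost its call under both (0.18 and 0.12). Cd63, a tetraspanin, Laptm4a and Cln3, the Batten disease protein, were not called against 0 h in either line.

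**Figure D2:**
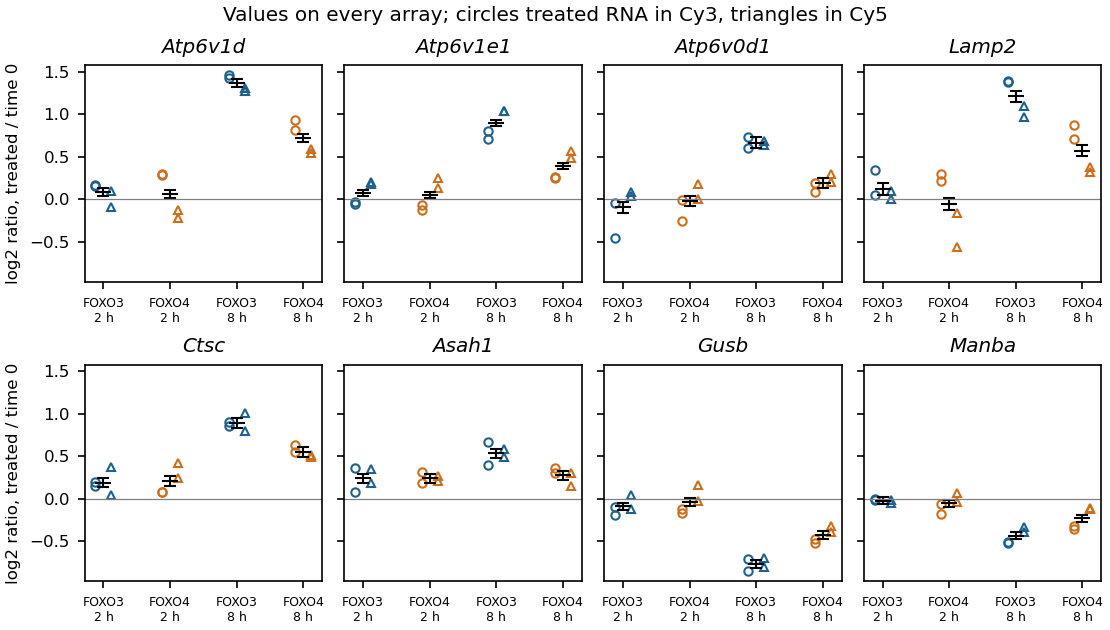
Log2 ratio of treated to time 0 RNA on every array for 8 genes, with the FOXO3 line in blue and the FOXO4 line in orange; circles are arrays with the treated RNA in Cy3 and triangles in Cy5, and black bars give the fitted ratio with its SE. Atp6v1d and Lamp2 separate the 8 h from the 2 h arrays in both lines, Gusb and Manba fall at 8 h, and Asah1 is already above 0 at 2 h.

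The hydrolases moved both ways in the FOXO3 line at 8 h: 10 of 24 rose and 8 fell, with a median log2 ratio of 0.06, where 15.4% and 15.1% of all genes were called. In the FOXO4 line 5 rose and 2 fell, with a median of 0.07, against 9.71% and 8.75% of all genes, and its falls are at the background share. By class in the FOXO3 line, 4 of 7 proteases rose and 1 fell, 3 of 3 lipid and thioester hydrolases rose, 2 of 10 glycosidases rose and 5 fell, and 1 of 4 sulfatases rose and 2 fell. Without the dye term the counts over hydrolases in the FOXO3 line were 6 higher and 4 lower.

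Ctsc, or dipeptidyl peptidase I, which activates the serine proteases of granules, rose most among hydrolases. Its 8 h ratios were 0.86, 0.80, 0.90 and 1.01 in the FOXO3 line against 0.64, 0.49, 0.55 and 0.52 in the FOXO4 line. The 2 h arrays read 0.14, 0.04, 0.19 and 0.37 in the FOXO3 line against 0.07, 0.41, 0.08 and 0.25 in the FOXO4 line. All 16 arrays were above 0, and the 3 levels (2 h, FOXO4 at 8 h, FOXO3 at 8 h) did not overlap. The fit gave 0.89 ± 0.06 (adjusted p = 2.31e-10) and 0.55 ± 0.06 (adjusted p = 5.31e-07) at 8 h.

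Among the other proteases, Ctss, a cysteine protease of antigen processing, rose by 0.42 in the FOXO3 line on a dim probe and read 0.21 in the FOXO4 line. Ctsa, the carboxypeptidase that protects galactosidase, and Tpp1, a tripeptidyl peptidase, rose by 0.21 and 0.23 in the FOXO3 line and read 0.08 and 0.11 in the FOXO4 line. Ctsd and Ctsl, an aspartic and a cysteine protease, were not called in either line. Ctsl read 0.29 or more on every Cy3-treated array and -0.36 or less on every Cy5-treated array, so its sign followed the dye. Without replicate 3 of the FOXO3 line at 8 h, the calls of Ctsa (0.15) and Tpp1 (0.19) were lost, and without replicate 4 that of Tpp1 (0.17). Median centring ended the call of Ctsa (0.20, adjusted p = 0.0642) and the deposited values that of Tpp1 (0.17, adjusted p = 0.0619).

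Ctsz, a carboxypeptidase of the cathepsin family, was the protease that fell. It read -0.41, -0.22, -0.35 and -0.13 in the FOXO3 line against -0.07, -0.14, 0.14 and 0.06 in the FOXO4 line at 8 h. At 2 h it read 0.07, 0.20, 0.08 and 0.16 in the FOXO3 line against 0.17, 0.40, 0.00096 and 0.25 in the FOXO4 line. All 4 arrays of the FOXO3 line at 8 h were below 0 and all 8 arrays at 2 h above it. The fitted 8 h ratio was -0.28 ± 0.05 (adjusted p = 0.000304) in the FOXO3 line against -0.0035 in the FOXO4 line.

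Asah1, acid ceramidase, which splits ceramide into sphingosine and fatty acid, was higher at both times. Its arrays read 0.40, 0.59, 0.66 and 0.49 in the FOXO3 line at 8 h and 0.36, 0.19, 0.07 and 0.35 at 2 h. In the FOXO4 line they read 0.31, 0.30, 0.35 and 0.15 at 8 h and 0.18, 0.26, 0.31 and 0.21 at 2 h. No array was below 0; the times overlapped in the FOXO4 line and not in the FOXO3 line. The 8 h ratios were 0.53 ± 0.05 (adjusted p = 1.08e-07) and 0.28 ± 0.05 (adjusted p = 0.000634).

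Lipa, lysosomal acid lipase, rose by 0.34 in the FOXO3 line and read 0.09 in the FOXO4 line on its brightest probe. Its probes differed: 2 dimmer ones gave 1.11 and 0.80 in the FOXO3 line against 0.48 and 0.42 in the FOXO4 line, all called over probes, and another gave 0.09 and -0.02 without a call; these were singled out after their values were seen. Ppt1, palmitoyl-protein thioesterase, rose by 0.17 in the FOXO3 line, with -0.16 and -0.26 on the Cy3-treated and 0.55 and 0.57 on the Cy5-treated arrays. The sign of its ratio thus changed with the dye, as did that of the cofactor Grn, and the call of Ppt1 was lost without replicate 1 (0.13) or 3 (0.16).

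Gusb, beta-glucuronidase, fell furthest. On the 8 h arrays it read -0.86, -0.81, -0.71 and -0.70 in the FOXO3 line against -0.48, -0.40, -0.52 and -0.32 in the FOXO4 line. Its 2 h arrays read -0.10, 0.05, -0.19 and -0.12 in the FOXO3 line against -0.12, 0.16, -0.17 and -0.03 in the FOXO4 line. The lines did not overlap at 8 h, nor did the times within a line. The fit gave -0.77 ± 0.04 (adjusted p = 7.16e-11) and -0.43 ± 0.04 (adjusted p = 6.29e-07); another probe fell to -0.53 and -0.22, and the dimmest read -0.03 and -0.0015 without a call.

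Manba, beta-mannosidase, followed Gusb. It read -0.52, -0.39, -0.51 and -0.34 in the FOXO3 line against -0.33, -0.12, -0.36 and -0.12 in the FOXO4 line at 8 h, and between -0.18 and 0.07 at 2 h. Cy3-treated arrays were lower than Cy5-treated ones at 8 h, and within each dye the FOXO3 arrays lay below the FOXO4 arrays. Fitted ratios were -0.44 ± 0.04 (adjusted p = 4.06e-08) and -0.23 ± 0.04 (adjusted p = 0.000261); with ratios centred on the external control spots in place of loess the FOXO4 value was -0.16 (adjusted p = 0.081).

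Gaa, acid alpha-glucosidase, which breaks down glycogen, read -0.45, -0.26, -0.26 and -0.20 in the FOXO3 line at 8 h and -0.01, 0.23, -0.27 and -0.25 at 2 h. The FOXO4 line gave -0.04, -0.12, 0.07 and -0.15 at 8 h and -0.00048, 0.69, 0.05 and -0.10 at 2 h. The arrays of the FOXO3 line at 8 h were all below 0 but overlapped its 2 h arrays. Its ratio of -0.29 ± 0.09 (adjusted p = 0.0228) in the FOXO3 line lost the call without replicate 1, 2 or 4 of that group (-0.25, -0.29 and -0.31) and with control-spot centring (-0.25, adjusted p = 0.125).

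Of the other glycosidases, Hexa, a hexosaminidase subunit, and Naglu, which acts on heparan sulfate, fell by 0.26 and 0.19 in the FOXO3 line and read -0.05 and -0.13 in the FOXO4 line. Fuca1, a fucosidase, rose by 0.46 and 0.23 and Man2b1, an alpha-mannosidase, by 0.26 and 0.13. Gla and Glb1, galactosidases, and Neu1, a sialidase, were not called in either line. Among sulfatases, Arsa, which acts on sulfatide, rose by 0.28 and 0.29, while Arsb and Galns, which act on glycosaminoglycans, fell by 0.25 and 0.23 in the FOXO3 line and read -0.04 and -0.12 in the FOXO4 line. The dimmer probe of Arsb read -0.07 without a call, and Sgsh, a sulfamidase, was not called. In the FOXO4 line the call of Man2b1 was lost without replicate 1, 2 or 3 of its 8 h arrays (0.11 to 0.15), with median or control-spot centring (0.15 and 0.20) and with the deposited values (0.11).

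The count of falls in the FOXO3 line rested on several weak calls. Without replicate 2 or without replicate 4 of the FOXO3 line at 8 h, 5 of the 46 genes were called lower in place of 9, of which 5 and 5 were hydrolases in place of 8. Galns lost its call without replicate 1, 2 or 4 (-0.18 to -0.24) and Naglu without 2, 3 or 4 (-0.16 to -0.19). With control-spot centring both were nearer to 0 and not called (Galns -0.12, adjusted p = 0.179, and Naglu -0.10, adjusted p = 0.37). All 3 cofactors rose in the FOXO3 line against 1 in the FOXO4 line (15.4% and 9.71% of all genes rose). Npc2, a cholesterol carrier, rose by 0.42 and 0.17 (without any 1 of the FOXO4 arrays at 8 h the latter was 0.14 to 0.19 with no call), and Psap, the precursor of the saposins, rose by 0.31 and read 0.11. Grn, progranulin, rose by 0.40 and read 0.05, with -0.18, 0.84, -0.12 and 1.05 on the arrays of the FOXO3 line at 8 h.

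Set side by side on each array, the V-ATPase median stood above the hydrolase median on 8 of 8 arrays at 8 h. The difference of the medians was 0.27 to 0.43 in the FOXO3 line (mean 0.36 ± 0.08 SD, n = 4) and 0.10 to 0.25 in the FOXO4 line (0.18 ± 0.07). At 2 h it was -0.08 to 0.06 in the FOXO3 line and -0.13 to -0.05 in the FOXO4 line, below every 8 h array. V-ATPase medians were lower on Cy3-treated than on Cy5-treated arrays in all 4 groups. No test is given for these medians. Under the 11 other settings the fitted difference at 8 h lay between 0.29 and 0.35 in the FOXO3 line and between 0.15 and 0.20 in the FOXO4 line. Aquantile scaling between arrays, no dye term, the replicate block, each line fitted alone and no filter gave the main values, 0.35 and 0.16. All of these but the filter cannot change a fitted ratio here, so they do not bear on its stability. Median and control-spot centring gave the same difference, 0.30 and 0.20. The genes of both classes were chosen with earlier results of these data known. Outside them, 12 further V-ATPase genes, many of them isoforms of other tissues, had median fitted ratios at 8 h of 0.08 (FOXO3) and 0.06 (FOXO4). The medians of 18 further lysosomal hydrolases were 0.03 and 0.005. The larger difference is therefore read for the chosen genes only, and not for the pump and the hydrolases at large.

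**Figure D3:**
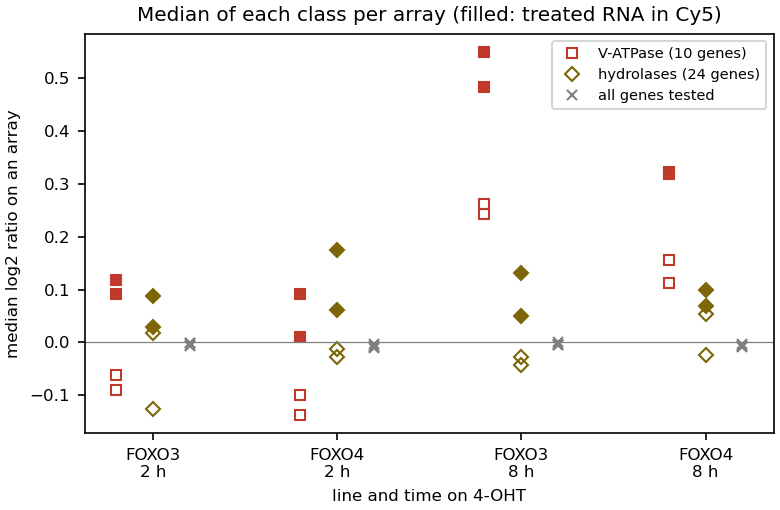
Median log2 ratio of the 10 V-ATPase genes (squares), the 24 hydrolases (diamonds) and all genes tested (crosses) on each of the 16 arrays; filled symbols are arrays with the treated RNA in Cy5. At 8 h every V-ATPase median is 0.11 or more, while hydrolase medians lie between -0.04 and 0.13.

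At 2 h little had moved. In the FOXO3 line 2 of 46 genes rose and 0 fell (over all genes 3.47% rose and 4.34% fell), and in the FOXO4 line 3 rose and 0 fell (3.39% and 5.41% over all genes). In either direction 7.8% and 8.8% of all genes were called, so the members' counts are near the background. The calls were Asah1 in both lines (0.24 ± 0.05 in each, adjusted p = 0.00537 and 0.00554), Ctsc in both (0.19 and 0.20 ± 0.06, adjusted p = 0.0466 and 0.0267) and Ctsz in the FOXO4 line (0.20 ± 0.05, adjusted p = 0.0189). In the FOXO3 line both calls were lost without replicate 1 or without replicate 4 of the 2 h arrays (Asah1 0.20 and 0.20, Ctsc 0.19 and 0.13). That of Ctsc was also lost without replicate 3 (0.18) and without any of 7 arrays of other groups, which left its ratio as it was. In the FOXO4 line Ctsc and Ctsz were lost without replicate 2 (0.14 and 0.15) or 4 (0.20 and 0.21), and Ctsz without replicate 1 (0.19) or with the replicate number as a block (adjusted p = 0.0554). Median and control-spot centring also ended the calls of Ctsc in both lines (0.15 to 0.21) and of Ctsz (0.18 and 0.21). Of the V-ATPase genes 0 of 10 were called by limma at 2 h in either line; at an unadjusted p under 0.05, Atp6v1e1 was higher in the FOXO3 line and Atp6v1h lower in the FOXO4 line.

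In the change from 2 h to 8 h the time 0 pool cancels. In the FOXO3 line 24 of 46 genes rose and 4 fell between the times (11.8% and 9.99% over all genes), with 8 of 10 V-ATPase genes higher and 0 lower, and 7 of 24 hydrolases higher and 4 lower (21.8% of all genes in either direction). Without replicate 4 of the FOXO3 line at 8 h, 4 hydrolases were higher. In the FOXO4 line 13 rose and 1, Gusb, fell (6.74% and 3.95% over all genes, 10.7% in all), with 7 of 10 V-ATPase genes higher and 2 hydrolases higher. Atp6v1d rose by 1.29 ± 0.07 and 0.66 ± 0.07, Lamp2 by 1.09 and 0.63 ± 0.10, and Atp6v1b2 by 0.47 and 0.45 ± 0.06. Gusb fell by 0.68 and 0.39 ± 0.06. Asah1 rose between the times in the FOXO3 line (0.29 ± 0.07, adjusted p = 0.00631) and read 0.04 in the FOXO4 line. Without the dye term the V-ATPase genes called higher numbered 4 and 2.

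The ratios were larger in the FOXO3 line. Of the 46 genes, 26 rose and 9 fell in the FOXO3 line at 8 h (15.4% and 15.1% over all genes tested). In the FOXO4 line 18 rose and 2 fell (9.71% and 8.75%). Of these, 17 rose in both, which is 65.4% of the FOXO3 and 94.4% of the FOXO4 rises. For 15 of the 17 the ratio was the larger in the FOXO3 line. These shares were not worked out over all genes, more of which were called in the FOXO3 line (30.5% against 18.5%). They are therefore not read as particular to the 46 genes. Gusb and Manba fell in both, and Atp6ap1 was called higher in the FOXO4 line alone, but its difference between the lines, -0.12 ± 0.07, was not called.

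Tested directly at 8 h, 9 of 46 genes were higher and 3 lower in the FOXO3 than in the FOXO4 line (5.37% and 5.28% over all genes, 10.6% in all). Atp6v1d differed by 0.65 ± 0.07 (adjusted p = 4.08e-06), Lamp2 by 0.64 ± 0.10 (adjusted p = 0.000191), Atp6v1e1 by 0.51 ± 0.05 (adjusted p = 1.75e-06) and Atp6v0d1 by 0.47 ± 0.09 (adjusted p = 0.00123). Ctsc, Atp6v0b, Asah1, Npc2 and Fuca1 were higher by 0.34, 0.28, 0.26, 0.25 and 0.23. Gusb, Ctsz and Manba were lower, by -0.34 ± 0.06 (adjusted p = 0.00114), -0.27 and -0.21. Calls for Atp6v1d, Atp6v1e1, Atp6v0d1 and Gusb held under all 10 other settings and with each array left out. Those of Lamp2 and Ctsc held with each array left out, but not without the dye term (adjusted p = 0.0795 and 0.0524), nor did that of Ctsc with median centring (0.24, adjusted p = 0.129). The calls for Ctsz and Manba were lost without replicate 1, 2 or 3 of the FOXO3 line at 8 h or replicate 4 of the FOXO4 line at 8 h, which left 1 gene lower (Ctsz -0.25 to -0.27, Manba -0.19 to -0.21). Replicate 3 of the FOXO4 line at 8 h decided Ctsz as well (-0.20), and replicate 2 Manba (-0.19). Single 8 h arrays likewise ended the calls of Asah1 (6 arrays, 0.21 to 0.27), Npc2 (6 arrays, 0.20 to 0.27), Fuca1 (6 arrays, 0.18 to 0.24) and Atp6v0b (replicates 1 and 4 of the FOXO3 and 4 of the FOXO4 line, 0.25 to 0.26). For Fuca1, 5 single 2 h arrays and the deposited values (0.19, adjusted p = 0.105) did so too. None of these 4 calls held with median or control-spot centring: Atp6v0b gave 0.18 and 0.19 (adjusted p = 0.325 and 0.458), Npc2 0.14 and 0.15, Asah1 0.21 and 0.22, and Fuca1 0.19 and 0.20. Control-spot centring also ended that of Manba (-0.23, adjusted p = 0.126). At 2 h limma called 0 of 46 genes between the lines, where 0.0172% of all genes were called in each direction (0.0343% in all); at an unadjusted p under 0.05, Atp6v1a and Man2b1 were higher in the FOXO3 line and 0 were lower. The comparison holds the errors of both pools.

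**Figure D4:**
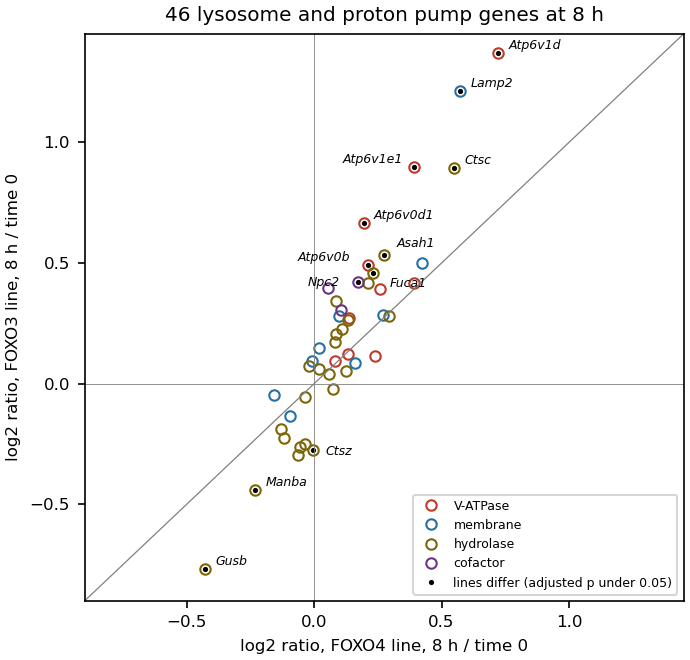
Fitted log2 ratio at 8 h in the FOXO4 line (horizontal axis) and in the FOXO3 line (vertical axis) for the 46 genes, coloured by class; the diagonal marks equal ratios and dots mark the 12 genes whose ratio differed between the lines. Labelled genes that rose lie above the diagonal and the 3 labelled genes at or below 0 lie under it.

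Other lysosomal genes were read from lists outside the 48, at 8 h beside the 15.4% higher and 15.1% lower of all genes in the FOXO3 line and the 9.71% and 8.75% in the FOXO4 line. Many of these list counts lie near those shares, and nothing particular to a list is read from them. Of 12 further V-ATPase genes tested, many of them isoforms of other tissues, 3 rose and 0 fell in the FOXO3 line at 8 h and 2 rose in the FOXO4 line. Atp6v0a2, an isoform of the large V0 subunit, rose by 0.39 and 0.20 ± 0.03 at 8 h after falling by 0.16 and 0.24 ± 0.03 at 2 h. Atp6ap2, the (pro)renin receptor, rose by 0.38 and 0.21 ± 0.05, and Atp6v1g1, a stalk subunit, rose by 0.18 in the FOXO3 line. Of 18 further hydrolases, 4 rose and 1 fell in the FOXO3 line and 3 rose and 1 fell in the FOXO4 line. Pla2g15, a lysosomal phospholipase, rose by 1.52 and 1.02 ± 0.06, and was already higher at 2 h by 0.46 and 0.61. Lgmn, an asparaginyl protease that processes cathepsins, rose by 1.11 and 0.65 ± 0.05, and Naaa fell to -0.29 and -0.18 ± 0.04.

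Of 23 further membrane genes 6 rose and 5 fell in the FOXO3 line and 3 rose and 4 fell in the FOXO4 line. Glmp rose by 0.71 and 0.17 ± 0.04, Slc17a5, which exports sialic acid, by 0.45 and 0.30 ± 0.05, and Slc38a9, an amino acid sensor, by 0.41 in the FOXO3 line, while Abca2 fell to -0.48 and -0.62 ± 0.06. Of the genes that tag hydrolases with mannose 6-phosphate and deliver them, 1 of 12 rose and 4 fell in the FOXO3 line, and 2 rose and 3 fell in the FOXO4 line. Gga2, an adaptor of transport from the Golgi, fell to -0.68 and -0.42 ± 0.04, M6pr, the small mannose 6-phosphate receptor, to -0.36 and -0.24 ± 0.04, and Nagpa, which uncovers the tag, to -0.51 and -0.30 ± 0.07. Cln8 rose by 0.28 in both.

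Of the transcriptional regulators, Tfe3, a MiT factor, rose by 0.36 ± 0.05 (adjusted p = 7.09e-06) and 0.17 ± 0.05 (adjusted p = 0.0147) at 8 h, after -0.13 without a call and -0.18 (adjusted p = 0.0278) at 2 h. Tfeb, Mitf and Tfec were not called in any of the 8 comparisons; Tfeb read -0.06 and 0.02 at 8 h. Zkscan3, described in human cells as a repressor of lysosomal genes, rose by 0.35 ± 0.05 in the FOXO3 line and read 0.09 in the FOXO4 line. Of 11 genes of the Ragulator, the Rag GTPases and folliculin, which bring mTOR complexes to the lysosome, 2 rose and 5 fell in the FOXO3 line and 1 rose and 1 fell in the FOXO4 line. Rragc rose by 0.30 and 0.19 ± 0.04 at 8 h, and Flcn, folliculin, fell by 0.41 and 0.22 ± 0.05 at 2 h and was not called at 8 h (singled out after its values were seen). Of 7 genes of lysosome fusion and positioning, 4 rose in the FOXO3 line against 2 in the FOXO4 line, led by Vps11 (0.29 and 0.23 ± 0.04).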

How the data were processed

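RNA of Ba/F3 cells was amplified, labelled through aminoallyl groups and hybridised with external control RNA, per the labels' protocols. The deposited scanner files hold mean spot intensity and local background, not subtracted, per the file headers. The authors also deposited normalized intensities and log2 ratios; the latter equal log2(treated / time 0) of the former to within 5e-06. No source used here states their normalization or the array's build. Channel 1 was taken as Cy5, which on 16 of 16 arrays was the deposited channel nearest to it by correlation. Median spot intensities lay between 92.2 and 159 over backgrounds of 38 to 45, 0 to 12 spots per array were saturated, and the number of arrays limits the precision.

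Intensities were corrected with normexp (offset 50) and loess within arrays (limma 3.58.1, R 4.3.3) and turned to treated over time 0. A probe stayed if either channel exceeded background by 2 SDs on 4 or more arrays. Of 31769 gene probes, 26000 had 1 symbol and 5769 none; 1981 symbols were updated through RefSeq synonyms. The brightest probe stood for a gene. Over all 31769 gene probes, before the filter, these ratios correlated with the deposited ratios by 0.390 to 0.839 per array. All 16 arrays entered 1 limma fit of the 4 groups plus a dye effect per gene, with p-values adjusted over 17484 genes. The fit was also run on simulated data, with no outcome given here, so nothing is concluded from that run. The median SE was 0.0501 for a group and 0.0709 for a difference. The dye effect was large beside these, with an SD of 0.212 over genes. Correlations between 2 arrays of a group ran from -0.593 to 0.931. Calls on small ratios therefore rest on the dye effect being modelled well. Promoters were searched with Python 3.11.15.

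The members, lists and naming rule were chosen with earlier results of these data known. The rule gave array values for the 6 highest and 4 lowest called members of 1 sign on all arrays of each line at 8 h, for up to 5 with the smallest adjusted p between the lines and up to 4 called at 2 h, and named up to 4 genes per other list and line and all MiT factors; arrays of Grn and Ppt1 were added after their values were seen. Alternatives were median or control-spot centring, the deposited values, Aquantile, no background correction, no dye term, each line alone, the mean of probes, no filter, a filter at the control spots, the replicate number as a block, and each array left out.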

Additional observations from a re-analysis of the deposited data

Results flagged for a closer look

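Single arrays stood apart from the other 3 of their group for 3 of the 184 combinations of gene and group (Dixon's test at the 95% level, which chance passes in about 5% of groups). Npc1 read 0.0662 on replicate 2 of the FOXO3 line at 2 h, against -0.11 to -0.09 on the others. Tpp1 read 0.43 on replicate 2 of the FOXO4 line at 2 h, against -0.01 to 0.01. Arsa read 0.0727 on replicate 2 of the FOXO4 line at 8 h, against 0.34 to 0.39. All 3 arrays had the treated RNA in Cy5.

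The 8 h response differed between the FOXO3 and FOXO4 lines, by limma's test of the difference, for 12 genes: log2 0.51 for Atp6v1e1, 0.65 for Atp6v1d, 0.64 for Lamp2, -0.34 for Gusb, 0.47 for Atp6v0d1, 0.34 for Ctsc, 0.28 for Atp6v0b, -0.27 for Ctsz, -0.21 for Manba, 0.26 for Asah1, 0.25 for Npc2 and 0.23 for Fuca1. Each line is 1 clone, so the factor and the clone cannot be told apart.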

How the results depend on the processing

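No call among the 46 genes changed sign under the 11 other settings or with an array left out. Of the 35 calls in the FOXO3 line at 8 h 23 held under every one, of the 20 in the FOXO4 line at 8 h 9, of the 28 and 14 between 2 h and 8 h 13 and 3, and of the 12 between the lines 4. At 8 h in the FOXO3 line 21 of 26 rises and 7 of 9 falls had the same sign on every array. The others were Atp6v1h, Grn, Lamp1, Ppt1 and Tpp1 among rises, and Cd68 and Galns among falls. In the FOXO4 line these counts were 16 of 18, without Atp6v1c1 and Npc2, and 2 of 2. The medians of V-ATPase genes and hydrolases moved by less than the spread between arrays of a group, a wide measure that includes the dye difference. With control-spot centring the hydrolase medians at 8 h went from 0.06 to 0.13 (FOXO3) and from 0.07 to 0.11 (FOXO4). The V-ATPase medians went from 0.40 to 0.43 and from 0.22 to 0.32. Aquantile, no dye term, the replicate block and the fit of each line alone cannot change these medians, so those settings do not bear on them. Leaving out an array of another group cannot change a group's medians either. Without the dye term the genes called higher and lower were 1 (FOXO3 at 2 h, higher), 1 (FOXO4 at 2 h, higher), 4 (FOXO3 at 8 h, lower), 9 (FOXO4 at 8 h, higher), 10 and 3 (higher between 2 h and 8 h in the FOXO3 and FOXO4 lines), and 3 higher and 1 lower between the lines at 8 h.

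Centring on control spots gave 1 higher in each line at 2 h, 5 lower in the FOXO3 line and 1 lower in the FOXO4 line at 8 h, 0 lower from 2 h to 8 h in the FOXO4 line, and 5 higher between the lines. Median centring gave 1 higher in each line at 2 h and 5 higher between the lines. At 2 h in the FOXO3 line 1 gene was higher without background correction, 1 was higher and 1 lower with the line fitted alone, and 1 was lower with the replicate block. Lower calls from 2 h to 8 h in the FOXO4 line were 2 with the deposited values, with the mean of probes and with the stricter filter.

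With arrays left out, genes called higher ranged over 0 to 2 and lower 0 to 1 in the FOXO3 line at 2 h, 1 to 4 and 0 to 1 in the FOXO4 line at 2 h, 22 to 26 and 5 to 9 in the FOXO3 line at 8 h, 13 to 19 and 2 to 3 in the FOXO4 line at 8 h, 19 to 24 and 3 to 4 between the times in the FOXO3 line, 9 to 14 and 1 to 2 in the FOXO4 line, and 6 to 11 and 1 to 4 between the lines at 8 h.

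Counts over all genes, higher and lower, fell without the dye term from 606 and 758 to 225 and 241 (FOXO3, 2 h), 592 and 946 to 177 and 303 (FOXO4, 2 h), 2688 and 2641 to 1673 and 1719 (FOXO3, 8 h), 1697 and 1530 to 914 and 694 (FOXO4, 8 h), 2058 and 1746 to 1086 and 951 and 1179 and 690 to 425 and 176 (between times), and 939 and 923 to 310 and 247 (between lines). Control-spot centring gave 2973 and 1918 and 2179 and 517 at 8 h, 417 and 364 and 321 and 388 at 2 h, 1760 and 1068 and 1054 and 137 between times, and 500 and 645 between lines; median centring gave 2249 and 2653 and 1663 and 968 at 8 h, 387 and 619 and 322 and 687 at 2 h, 1001 and 257 between times in the FOXO4 line, and 545 and 932 between lines. Between the lines at 2 h the counts were 3 and 3, and 0 to 5 under the other settings. Without replicate 4 of the FOXO3 line at 2 h 399 genes were higher there, and without replicate 1 or 2 of the FOXO4 line at 2 h 620 or 598 were lower. The cause of these shifts was not tested.

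Same-numbered 2 h and 8 h arrays share a number but no stated origin: after the dye term their deviations correlated by -0.39 to 0.168, over 0.1 in 1 of 8 pairs, and 2 of 8 arrays at 2 h correlated best with their own number. With the replicate block, genes called higher and lower were 26 and 7 (FOXO3) and 17 and 2 (FOXO4) at 8 h. Limits: 1 pool per line as control, 1 clone per factor, no untreated time course, and dim probes. Above the control-spot mark 7 genes lay in no reading, and 15, these 7 included, in no more readings than below it. Calls at 8 h of Arsb, Cd68, Ctss, Galns, Grn, Lipa, Mcoln1, Naglu and Ppt1 rest on such probes.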

Other observations

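The marker genes of blood lineages that were called against 0 h are given as values. Ptprc, which encodes the leukocyte antigen CD45, rose by 0.39 and 1.25 ± 0.06 in the FOXO3 line at 2 h and 8 h and by 0.22 and 0.76 in the FOXO4 line. Hba-a1, an alpha-globin gene, rose by 1.76 ± 0.06 in the FOXO3 line at 8 h and by 0.34 in the FOXO4 line. Cd3e, a T cell receptor component, rose by 0.41 ± 0.06 in the FOXO3 line at 8 h and read 0.12 in the FOXO4 line. Klf1, an erythroid transcription factor, fell to -0.77 and -0.81 in the FOXO3 line and to -1.02 and -0.86 in the FOXO4 line at 2 h and 8 h. Gata2, a factor of progenitors and mast cells, fell to -0.47 and -0.41 in the FOXO3 line and to -1.06 and -0.69 in the FOXO4 line. Fcgr1 was the macrophage marker that fell at 8 h, to -0.23 and -0.18 ± 0.05.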
